A study of Mus musculus with 7 samples.

Results

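Endothelial and pericyte genes were followed in the subpallium of mouse embryos labelled as conditional knockouts of Otx2. The set holds 41 genes chosen by the cell type they are known to mark, of 17178 genes with a named probe, and consists of 28 endothelial genes, 5 genes of the blood-brain barrier and 8 genes of mural cells, the pericytes and smooth muscle cells that wrap vessels. Each gene was represented by its brightest probe. Of the 41 genes 40 could be tested, and the transcription factor gene Erg was above background on too few arrays.

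The study compared the ganglionic eminences and septum of 3 embryos labelled Otx2 cKO, in which RxCre acts on a floxed Otx2 allele, with those of 4 embryos labelled Control, whose alleles are not stated further. All 7 embryos were female, of strain CD-1 and at stage E12.5, with 1 embryo per Agilent array. Per the series description RxCre is active across the forebrain but spares a caudal dorsomedial domain (cortical hem, choroid plexus), and it was used to remove Otx2 between about E8.5 and E10.0. Litter 2 gave cKO replicates 1 and 3 and control replicates 2 and 3, and each other embryo was the only one of its litter; slide 1 held cKO replicate 1 with control replicates 1 and 2, and slide 2 held the rest.

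Brain vessels grow into the neural tube from a plexus on its surface. Endothelial cells come from mesoderm and answer to VEGF through the receptors Kdr and Flt1 and to angiopoietins through Tek, while ETS and SOXF transcription factors (Erg, Fli1 and Ets1; Sox7, Sox17 and Sox18) maintain their identity. WNT7 ligands of the neural tube act on endothelial cells to start the barrier, and endothelial PDGF-B recruits pericytes, which carry the receptor Pdgfrb.

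ETS and SOXF factors are known regulators of endothelial genes, so promoters were searched for letters such factors bind. The RefSeq promoter windows of build GRCm38.p6, from 250 bases before to 50 after a start, matched 25 of the 41 genes with 31 windows. The ETS-type letters CAGGAAG, on either strand, were in 7 of 17 endothelial windows (41.2%), 2 of 7 barrier windows and 0 of 7 mural windows, and in 13.3% of all 32851 windows. The 17 endothelial windows belong to only 13 of the 28 endothelial genes, and the 7 with the letters to 6 genes. Both barrier windows with the letters are of Abcg2. CCGGAAG was in 0 of the 31 windows and in 8.86% of all, and the SOX-type letters AACAAT were in 3 of the 31 windows, those of Emcn, Erg and Tek, and in 10.7% of all. CAGGAAG and CCGGAAG cannot lie at the same place, and neither overlaps AACAAT in the windows shown. A match is a description of letters and not a bound site, and no match says only that the letters are not in that window.

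Windows of 4 endothelial genes are shown because they carry these letters, in capitals on either strand, 5′ to 3′ on the strand of the gene. Egfl7 (chr2:26580833-26581132, plus strand) has CAGGAAG beginning 90 bases before the start and its reverse complement 49 bases before it. Further windows of Egfl7, with 1 and 0 CAGGAAG matches, are not shown. Emcn (chr3:137340828-137341127, plus strand) has the reverse complement of CAGGAAG 174 bases and AACAAT 50 bases before the start. Robo4 (chr9:37401722-37402021, plus strand) has CAGGAAG 50 bases before the start, and Tek (chr4:94739039-94739338, plus strand) has the reverse complement of AACAAT 63 bases before it.
Egfl7: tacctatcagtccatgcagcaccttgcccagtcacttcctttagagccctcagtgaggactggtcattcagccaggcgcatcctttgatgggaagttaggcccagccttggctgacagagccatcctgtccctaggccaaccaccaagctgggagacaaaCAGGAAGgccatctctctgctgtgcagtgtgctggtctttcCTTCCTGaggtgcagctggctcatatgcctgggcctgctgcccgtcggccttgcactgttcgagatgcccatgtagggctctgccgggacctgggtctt
Emcn: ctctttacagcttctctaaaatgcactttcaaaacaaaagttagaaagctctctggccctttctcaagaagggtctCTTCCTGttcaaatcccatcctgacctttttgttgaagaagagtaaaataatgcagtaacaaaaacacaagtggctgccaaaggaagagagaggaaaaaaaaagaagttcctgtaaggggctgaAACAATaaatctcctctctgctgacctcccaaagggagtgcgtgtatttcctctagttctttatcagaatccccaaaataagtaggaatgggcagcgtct
Robo4: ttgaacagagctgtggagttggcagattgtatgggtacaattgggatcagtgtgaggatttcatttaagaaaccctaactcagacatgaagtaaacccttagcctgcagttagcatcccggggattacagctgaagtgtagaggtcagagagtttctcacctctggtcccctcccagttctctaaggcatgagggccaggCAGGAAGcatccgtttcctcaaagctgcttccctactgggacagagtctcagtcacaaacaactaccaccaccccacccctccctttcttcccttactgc
Tek: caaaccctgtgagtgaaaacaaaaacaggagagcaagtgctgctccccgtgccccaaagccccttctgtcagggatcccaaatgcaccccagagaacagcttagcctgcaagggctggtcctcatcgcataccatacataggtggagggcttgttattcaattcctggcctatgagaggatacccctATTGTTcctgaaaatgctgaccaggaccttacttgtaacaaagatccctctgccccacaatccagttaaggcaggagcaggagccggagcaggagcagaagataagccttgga

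Values are log2 signals relative to the 75th percentile of the array, so 0 means the level of that percentile and a difference of 1 is a doubling of signal. The signal of the targeted gene ran against the label. Otx2 had log2 signals of 1.63, 2.01 and 1.59 in cKO replicates 1 to 3, against 0.0027, 0.33, 0.23 and 0.38 in control replicates 1 to 4, a difference of 1.51 ± 0.14 (SE; limma, adjusted p = 0.0182). All 3 arrays labelled Otx2 cKO were above all 4 controls. Whether the probe reads the deleted part of the gene is not stated, and a probe outside that part checks nothing. The Otx2 difference was 1.46 within slide 1, 1.497 within slide 2 and 1.33 within litter 2, none past the test (adjusted p = 1, 0.254 and 0.307). With litter as a block it was 1.33 and did not pass (adjusted p = 0.307), and 13 of 24 alternatives kept the call. It was also lost without control replicate 2, 3 or 4 or cKO replicate 2 or 3 (adjusted p = 0.0621, 0.101, 0.0789, 0.0521 and 0.0713), with the difference between 1.38 and 1.58 over the 7 omissions. Groups are named by their labels, and every direction rests on those labels. Between 68.4% and 72.2% of spots per array were well above background.

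No vascular gene passed the test between the groups. Of the 40 genes tested with limma 0 rose and 0 fell at an adjusted p under 0.05. Over all 13350 genes tested 0.195% passed, 0.0824% of all genes up and 0.112% down. With an unadjusted p under 0.05 the count was again 0 of 40, where 10.7% of all genes had one, 3.98% higher and 6.72% lower. The adjusted p ranged from 0.52 to 0.999, and the standard error of a difference from 0.0919 to 0.731 with a median of 0.299. With any 1 array left out 0 genes passed at an adjusted p under 0.05. An unadjusted p under 0.05 was then found for 3 of 40 genes without control replicate 2. Of all 13296 genes in that fit 759 were lower and 462 higher at that p. Without cKO replicate 1 it was 3 of 39, beside 1276 lower and 667 higher of all 12984 genes. Without cKO replicate 2 it was 7 of 39, beside 737 lower and 518 higher of all 13225 genes. All of these vascular genes were lower in the cKO-labelled arrays. These p-values do not show that the groups were alike: the 95% interval of Kdr, for example, ran from -0.74 to 0.75 around a difference of 0.0015.

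The spread between embryos within each label was wide. The median SD of a vascular gene was 0.57 among cKO-labelled embryos and 0.33 among controls. Among the 38 tested genes with a value on every array, cKO replicate 2 was the highest array for 25 and cKO replicate 3 the lowest for 21. In 24 of the 38 genes the 3 lowest arrays were cKO replicates 1 and 3 and control replicate 2. All 3 of these embryos came from litter 2, as did control replicate 3, which was the lowest array for 0 genes.

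**Figure D1:**
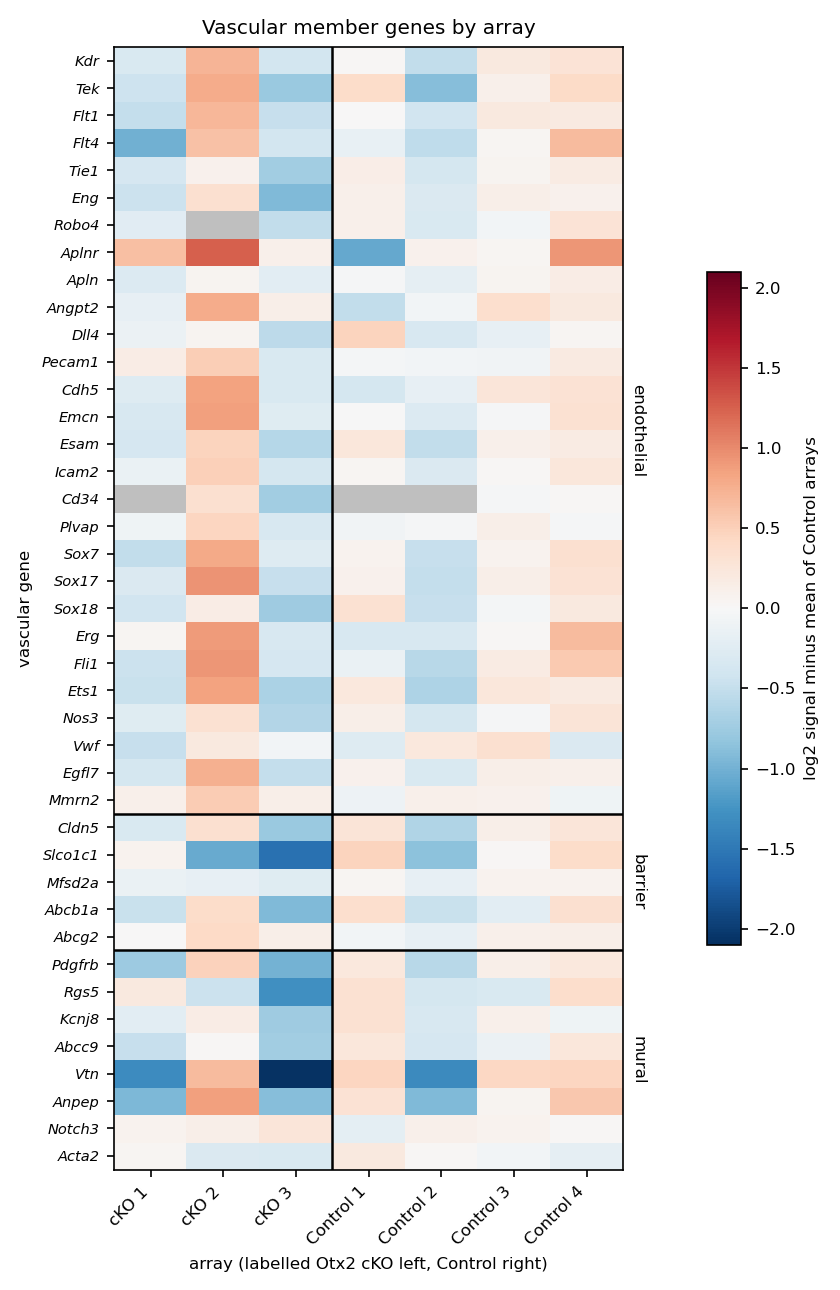
Log2 signal of each of the 41 vascular genes minus its mean over the Control arrays, with genes down the page by class and arrays across, cKO-labelled left and Control right; grey cells had outlier spots. The column of cKO replicate 2 is mostly red, and those of cKO replicates 1 and 3 and of control replicate 2 mostly blue. In cKO replicate 2 Slco1c1, Rgs5, Acta2 and, more faintly, Mfsd2a are below the Control mean.

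The endothelial genes had a median difference of -0.10 over the 27 tested, beside 0.0051 over all genes tested, with 12 above 0 and 15 below. With the controls' mean as 0, the median of these genes was -0.33, 0.58 and -0.39 in cKO replicates 1 to 3, against 0.036, -0.33, 0.084 and 0.20 in control replicates 1 to 4. The groups overlapped, with cKO replicate 2 above every control and the other cKO-labelled arrays close to control replicate 2. Within slide 1, slide 2 and litter 2 the median difference was -0.18, -0.076 and -0.21, and with slide as a block -0.15. It was -0.38 without cKO replicate 2 and above 0 without cKO replicate 1, cKO replicate 3 or control replicate 3 (0.095, 0.18 and 0.0011). In such bulk tissue, fewer vascular cells and less RNA per vascular cell cannot be told apart.

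By its median, the list of mesenchyme and meninges was low and high in the same arrays as the endothelial genes. Its genes Prrx1 and Crabp2 did not follow that pattern. Of 12 genes of mesenchyme and meninges all 12 were tested and 0 passed, and set against the controls' mean their median stood at -1.32, 1.78 and -0.77 in cKO replicates 1 to 3, against 0.40, -1.85, 0.55 and 0.77 in control replicates 1 to 4. The summed linear signal of 11 of them, with a value on every array, ran from 3.03 to 38.9 in cKO-labelled embryos and 2.91 to 21.4 in controls. All 12 were well above background on at least 1 array. The 7 microglia and macrophage genes with a probe, of 8 in the list, had summed signals of 1.59 to 3.05 in cKO-labelled embryos and 1.54 to 2.53 in controls, with 0 below background on every array, and the 8 erythroid genes, also with 0 such genes, 183.2 to 266.3 in cKO-labelled embryos and 173.2 to 264.1 in controls. Again cKO replicate 2 was the highest array in each of these lists by its median. Of these lists the mesenchymal genes Dcn and Prrx1 differed by -2.67 ± 1.82 and 0.17 ± 0.16, the microglial genes Aif1 and Cx3cr1 by 0.23 ± 0.21 and -0.19 ± 0.24, and the embryonic globin gene Hbb-bh1 by 0.25 ± 0.29; Dcn lacked a value in cKO replicate 2 and control replicate 1. Their part in the vascular values was not tested. The summed signal of the 6 neural progenitor genes ran from 212.8 to 265.9 in cKO-labelled embryos and 185.0 to 223.4 in controls, and 4 of the 6 subpallial neuron genes tested had every cKO-labelled value below every control, where 6.99% of all genes tested did. One of the 4, Dlx1, had no value in cKO replicate 3. Of the 6 genes 0 passed the test, and the summed signals of the 4 with a value on every array were 59.0 to 75.9 in cKO-labelled embryos and 85.1 to 93.6 in controls. Among progenitor genes Vim and Fabp7 differed by 0.28 ± 0.16 and 0.19 ± 0.11, and among neuron genes the GABA synthesis genes Gad1 and Gad2 by -0.68 ± 0.16 and -0.35 ± 0.0881.

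**Figure D2:**
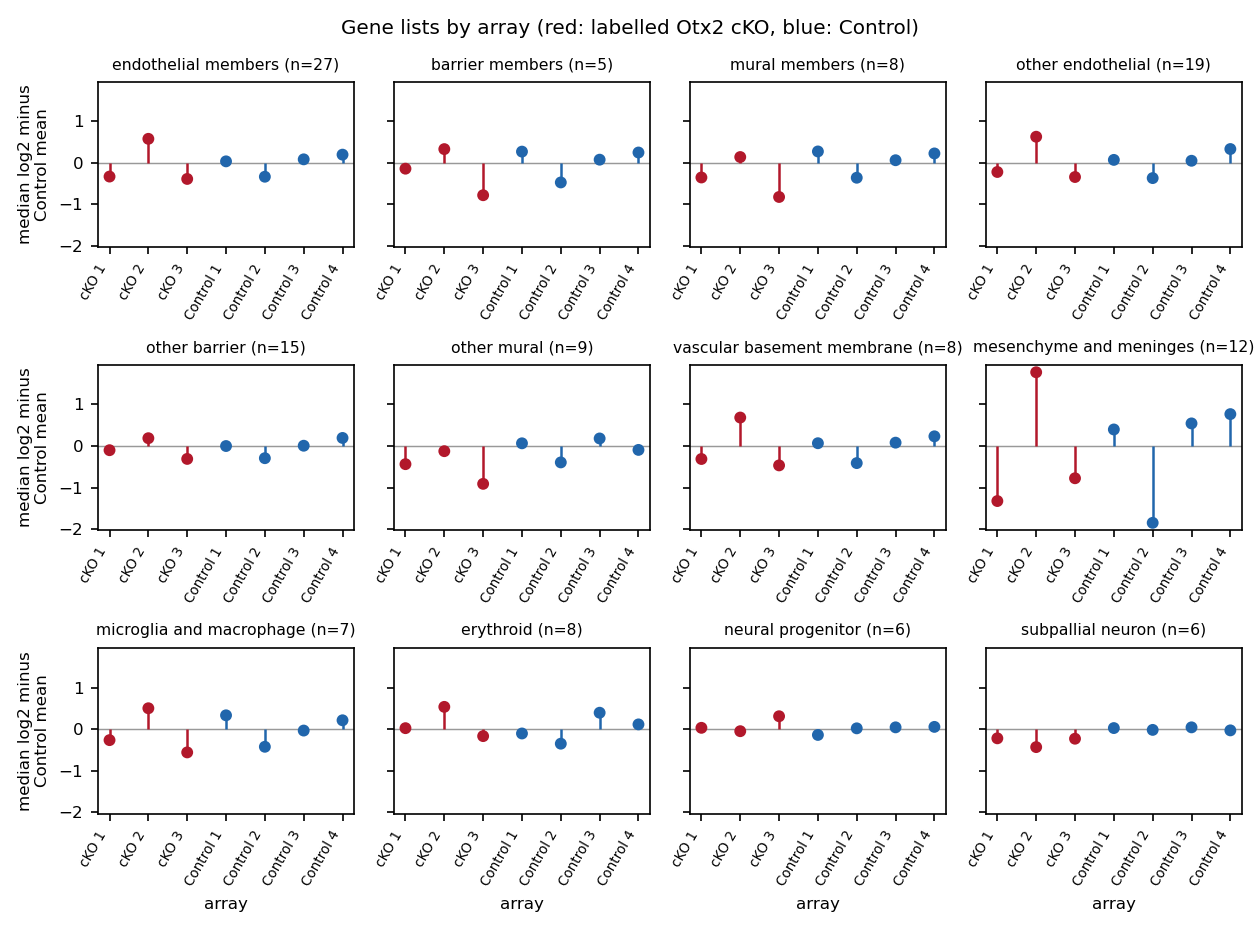
Median log2 signal of 12 gene lists relative to the mean of the Control arrays, with 1 point per array (red, labelled Otx2 cKO; blue, Control) and n the number of genes tested. The mesenchyme and meninges list spans -1.85 to 1.78, the endothelial genes -0.39 to 0.58, and cKO replicate 2 is the highest array in both.

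Among the endothelial receptors and their ligands, 11 genes were tested and 0 passed, with 3 above 0 and 8 below. Kdr, the main signalling receptor for VEGF-A, had log2 signals of 0.19, 1.22 and 0.13 in cKO replicates 1 to 3, against 0.53, -0.0062, 0.71 and 0.80 in control replicates 1 to 4. Its lowest array was a control and its highest a cKO-labelled one, and the group means were 0.51 ± 0.62 in cKO-labelled embryos and 0.51 ± 0.36 in controls (SD, n = 3 and 4). The angiopoietin receptor gene Tek, whose product steadies mature vessels, had -2.55, -1.34 and -2.89 in cKO replicates 1 to 3, against -1.73, -3.01, -2.001 and -1.71 in control replicates 1 to 4. Here too control replicate 2 was lowest and cKO replicate 2 highest, and the difference was -0.15 ± 0.46 (adjusted p = 0.935).

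Tie1, an orphan relative of Tek, had -0.60, -0.16 and -0.97 in cKO replicates 1 to 3, against -0.10, -0.62, -0.18 and -0.078 in control replicates 1 to 4. Unlike in Kdr, cKO replicate 2 lay within the control range, while cKO replicate 3 was the lowest array. The difference of -0.33 ± 0.22 did not pass (limma, adjusted p = 0.634), and it was -0.13 without cKO replicate 3. Robo4, a roundabout receptor that stabilises endothelium, had unflagged values of 0.72 and 0.43 in cKO replicates 1 and 3, against 1.05, 0.63, 0.90 and 1.24 in control replicates 1 to 4. Its spot in cKO replicate 2 was marked as an outlier and left out; with it kept, at 1.67, the difference was -0.015 in place of -0.38 ± 0.19 (adjusted p = 0.538), and it was 0.0067 in the authors' deposited table. The value for Robo4 therefore rests on that spot.

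Aplnr, the receptor for the peptide apelin and a gene of sprouting and venous endothelium, had -0.59, 0.036 and -1.12 in cKO replicates 1 to 3, against -2.30, -1.13, -1.18 and -0.30 in control replicates 1 to 4. It had the widest range of these receptors, with control replicate 1 lowest by a wide margin, and a difference of 0.67 ± 0.48 (adjusted p = 0.653); it was 0.31 without control replicate 1, and its dimmer probe gave 0.38. The ligand gene Apln, made by tip cells, had -0.19, 0.16 and -0.13 in cKO replicates 1 to 3, against 0.061, -0.10, 0.16 and 0.25 in control replicates 1 to 4, with overlapping groups and a difference of -0.15 ± 0.13. A dimmer Apln probe above background on all 7 arrays gave -0.0073, and a dim probe above background on 3 arrays, and at the floor on the other 4, gave 0.91, of the opposite sign. The other receptor and ligand genes differed by -0.10 for the VEGF receptor gene Flt1, -0.26 for Flt4 (the VEGF-C receptor), -0.34 for the TGF-beta co-receptor gene Eng, 0.25 for the Tek ligand gene Angpt2 and -0.21 for the Notch ligand gene Dll4. For Flt1, Eng and Angpt2 cKO replicate 2 was the highest of the 7 arrays.

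The 7 adhesion and surface genes lay near 0, with a median difference of 0.008 and 0 past the test. Pecam1, which encodes the junction protein CD31, had -3.84, -3.49 and -4.31 in cKO replicates 1 to 3, against -4.05, -4.05, -4.08 and -3.81 in control replicates 1 to 4. Its SD was 0.12 among controls and 0.41 among cKO-labelled embryos, and the groups overlapped, with both the highest and the lowest array labelled cKO. Cdh5, the gene of VE-cadherin, had -0.23, 0.89 and -0.28 in cKO replicates 1 to 3, against -0.33, -0.13, 0.29 and 0.34 in control replicates 1 to 4, and a dimmer probe gave a difference of 0.33 where the brighter gave 0.087 ± 0.32. In both Pecam1 and Cdh5 cKO replicate 2 was highest. Esam, another junction gene, had -1.94, -1.12 and -2.19 in cKO replicates 1 to 3, against -1.36, -2.11, -1.49 and -1.42 in control replicates 1 to 4, a difference of -0.16 ± 0.29 (adjusted p = 0.879).

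The remaining surface genes differed by 0.088 for the sialomucin gene Emcn, 0.0031 for Icam2, 0.008 for Plvap, which encodes the diaphragm protein of leaky vessels, and -0.19 for Cd34. The outlier marks removed 3 of 7 Cd34 values (cKO replicate 1 and control replicates 1 and 2); with them kept the Cd34 signals were 2.01, 2.86 and 1.79 in cKO replicates 1 to 3, against 2.20, 1.90, 2.50 and 2.54 in control replicates 1 to 4, and the difference was -0.065. Plvap, the gene that endothelium loses as the barrier matures, had its highest and lowest arrays both among the cKO-labelled embryos, with group means of 1.27 ± 0.41 in cKO-labelled embryos and 1.26 ± 0.086 in controls (SD, n = 3 and 4).

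Of the 6 transcription factor genes 5 were tested and 0 passed. Ets1, an ETS factor, had -0.85, 0.47 and -1.05 in cKO replicates 1 to 3, against -0.16, -1.02, -0.14 and -0.20 in control replicates 1 to 4. Control replicate 2 and cKO replicates 1 and 3 lay together well below the other 4 arrays, and the difference was -0.10 ± 0.40 (adjusted p = 0.954). Dimmer Ets1 probes gave differences of 0.21 and -0.15, of both signs. Sox18, a SOXF factor of vessels and lymphatics, had -0.41, 0.13 and -0.77 in cKO replicates 1 to 3, against 0.30, -0.49, -0.05 and 0.18 in control replicates 1 to 4, a difference of -0.33 ± 0.26 (adjusted p = 0.690), with cKO replicate 2 inside the control range. Sox7, Sox17 and Fli1 differed by 0.0014, 0.055 and 0.043, and in each cKO replicate 2 was above all controls. Erg was above background on 1 of 3 cKO-labelled and 1 of 4 control arrays, so no difference is given.

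Fli1 and Ets1 are neighbours on chromosome 9, with 0 protein-coding genes between them in the GRCm38.p6 gene order. Relative to the control mean, cKO replicates 1 to 3 stood at -0.44, 0.92 and -0.35 for Fli1 and at -0.47, 0.85 and -0.67 for Ets1. In both genes cKO replicate 2 was the highest of the 7 arrays.

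Among the 4 genes of secreted proteins and enzymes, Mmrn2 was the only vascular gene of the 40 whose groups did not overlap, where 11.8% of all genes tested had no overlap, 4.85% with the cKO-labelled arrays higher and 6.99% with them lower. Mmrn2, which encodes an extracellular matrix protein that binds the receptor CD93, had 0.81, 1.24 and 0.81 in cKO replicates 1 to 3, against 0.59, 0.80, 0.78 and 0.61 in control replicates 1 to 4. The gap between the lowest cKO-labelled and the highest control array was small, and the difference of 0.26 ± 0.13 did not pass (limma, adjusted p = 0.537; 95% interval -0.054 to 0.57). Over 24 alternatives it lay between 0.02 and 0.33. Nos3, the endothelial nitric oxide synthase gene, had -1.60, -1.04 and -1.97 in cKO replicates 1 to 3, against -1.23, -1.72, -1.38 and -1.08 in control replicates 1 to 4, a difference of -0.18 ± 0.24 (adjusted p = 0.831).

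Egfl7, a secreted factor of sprouting vessels, had 1.23, 2.34 and 1.10 in cKO replicates 1 to 3, against 1.69, 1.27, 1.72 and 1.71 in control replicates 1 to 4. Of the 4 genes it had the widest range, set by cKO replicate 2 at the top and cKO replicate 3 at the bottom, and its group means were 1.56 ± 0.68 in cKO-labelled embryos and 1.60 ± 0.22 in controls (SD, n = 3 and 4). Vwf, the von Willebrand factor gene, differed by -0.11 ± 0.23 and had control replicate 3 as its highest array.

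**Figure D3:**
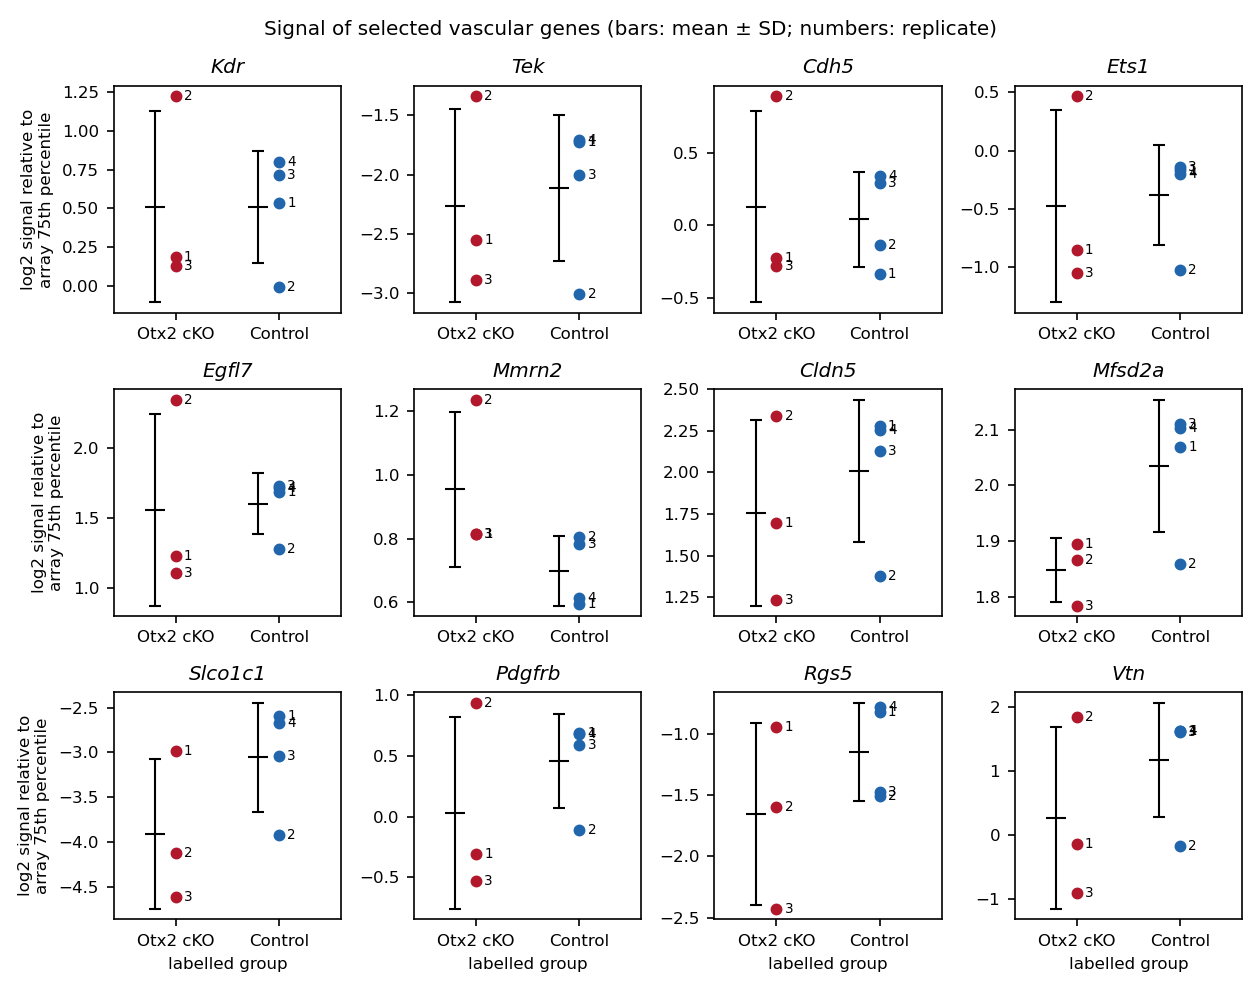
Log2 signal of 12 vascular genes relative to the 75th percentile of each array, with 1 point per array numbered by replicate and a bar for the mean ± SD of each labelled group (Otx2 cKO left, n = 3; Control right, n = 4). Of these 12 genes the groups are fully separated in Mmrn2 alone, cKO replicate 2 tops most genes, and it sits below the Control mean for Slco1c1, Mfsd2a and Rgs5.

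Of the 5 barrier genes 0 passed the test. Their median difference was -0.25, with 1 above 0 and 4 below, beside 0.0051 and 49.0% below 0 over all genes tested. In cKO replicate 1 all 5 lay within the control range, 3 of 5 lay above every control in cKO replicate 2, and 4 of 5 lay below every control in cKO replicate 3. With the controls' mean as 0 the median of the 5 was -0.14, 0.33 and -0.78 in cKO replicates 1 to 3, against 0.27, -0.47, 0.076 and 0.25 in control replicates 1 to 4, so the group ranges overlapped. Within slide 1, slide 2 and litter 2 the median difference was -0.069, -0.33 and -0.29, and it was -0.043 without cKO replicate 3, -0.55 without cKO replicate 2 and -0.47 without control replicate 2.

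Mfsd2a, the lipid transporter that limits transcytosis across brain endothelium, had 1.89, 1.87 and 1.78 in cKO replicates 1 to 3, against 2.07, 1.86, 2.11 and 2.10 in control replicates 1 to 4. All 3 cKO-labelled arrays lay below control replicates 1, 3 and 4, and only control replicate 2 shared their range. The difference was -0.19 ± 0.0919 (limma, adjusted p = 0.520; 95% interval -0.40 to 0.03). Its unadjusted p of 0.0814 was the smallest of the 40 genes. Unlike Kdr and Tek, Mfsd2a was not above the controls in cKO replicate 2.

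Slco1c1, a transporter of thyroid hormone at the barrier, had -2.98, -4.12 and -4.61 in cKO replicates 1 to 3, against -2.59, -3.92, -3.04 and -2.67 in control replicates 1 to 4. cKO replicates 2 and 3 were below all 4 controls while cKO replicate 1 lay within the control range. The difference was -0.85 ± 0.46 (adjusted p = 0.559), and it was 0.27 within slide 1 and -1.51 within slide 2, where the cKO-labelled arrays number 1 and 2. Slco1c1 in cKO replicate 2 stood at -1.06 relative to the control mean, against 0.58 for the median of the endothelial genes in the same array.

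Cldn5, the main claudin of the tight junctions, had 1.70, 2.34 and 1.23 in cKO replicates 1 to 3, against 2.28, 1.37, 2.13 and 2.26 in control replicates 1 to 4. As in Kdr and Tek, cKO replicate 2 was highest and control replicate 2 was among the lowest arrays, with a difference of -0.25 ± 0.32 (adjusted p = 0.815). Abcb1a, the drug efflux pump gene, had -6.77, -5.92 and -7.23 in cKO replicates 1 to 3, against -5.95, -6.78, -6.53 and -5.96 in control replicates 1 to 4 and was above background on 2 of 3 cKO-labelled and 3 of 4 control arrays, with a difference of -0.34 ± 0.35. Abcg2, another efflux transporter that other cells also express, had 1.14, 1.55 and 1.26 in cKO replicates 1 to 3, against 1.06, 0.95, 1.24 and 1.26 in control replicates 1 to 4. It was the single barrier gene above 0, at 0.19 ± 0.13 (limma, adjusted p = 0.649). Its dimmer probe gave -0.0029, but lacked a value in cKO replicate 2, the highest array on the brighter probe.

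The 8 mural genes had the most negative median of the 3 classes, again without a called gene. It was -0.36, with 1 gene above 0, 7 below and 0 called. With the controls' mean as 0 their median was -0.35, 0.14 and -0.82 in cKO replicates 1 to 3, against 0.27, -0.36, 0.063 and 0.23 in control replicates 1 to 4, so the ranges of the groups overlapped and cKO replicate 3 was the lowest array. Within slide 1, slide 2 and litter 2 the median difference was -0.32, -0.37 and -0.37. It was -0.13 without cKO replicate 3, -0.57 without cKO replicate 2 and -0.57 without control replicate 2. No test of the difference between the classes was run.

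Pdgfrb, the PDGF-B receptor gene of pericytes, had -0.31, 0.94 and -0.53 in cKO replicates 1 to 3, against 0.69, -0.11, 0.59 and 0.68 in control replicates 1 to 4. cKO replicates 1 and 3 were below every control and cKO replicate 2 above every control, with a difference of -0.43 ± 0.38 (adjusted p = 0.726). Vtn, which encodes vitronectin and is strong in brain pericytes, had -0.14, 1.84 and -0.89 in cKO replicates 1 to 3, against 1.63, -0.17, 1.61 and 1.62 in control replicates 1 to 4. It had the widest range of the 40 genes tested, and control replicates 1, 3 and 4 lay almost on the same value while control replicate 2 fell in with cKO replicates 1 and 3. The difference was -0.90 ± 0.73 (adjusted p = 0.698; 95% interval -2.63 to 0.82).

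Rgs5, a regulator of G protein signalling in pericytes, had -0.95, -1.60 and -2.43 in cKO replicates 1 to 3, against -0.82, -1.51, -1.47 and -0.78 in control replicates 1 to 4. Here cKO replicate 1 lay within the control range and cKO replicate 2 below every control, the reverse of their order in Pdgfrb and Vtn, and the difference was -0.51 ± 0.37 (adjusted p = 0.657). Within slide 1 it was 0.22 and within slide 2 -0.89. Relative to the control mean, cKO replicates 1 to 3 stood at 0.20, -0.45 and -1.28 for Rgs5 and at -0.95, 0.86 and -0.89 for Anpep, an aminopeptidase gene that meningeal cells express as well.

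Abcc9, which encodes the sulfonylurea receptor subunit of the pericyte potassium channel, had -2.74, -2.23 and -2.98 in cKO replicates 1 to 3, against -2.02, -2.61, -2.37 and -2.02 in control replicates 1 to 4. The difference of -0.40 ± 0.22 had the smallest p of the mural genes without passing (adjusted p = 0.571), and its dimmer probes gave -0.63 and -0.51. Kcnj8, the pore subunit of the same channel and the neighbour of Abcc9 on chromosome 6 with 0 protein-coding genes between them, differed by -0.27 ± 0.24, and its dimmer probe by -0.47. In both genes cKO replicate 3 was the lowest array and control replicate 1 the highest. Notch3, a Notch receptor of mural cells that neural progenitors also express, differed by 0.15 ± 0.10, the single mural gene above 0.

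**Figure D4:**
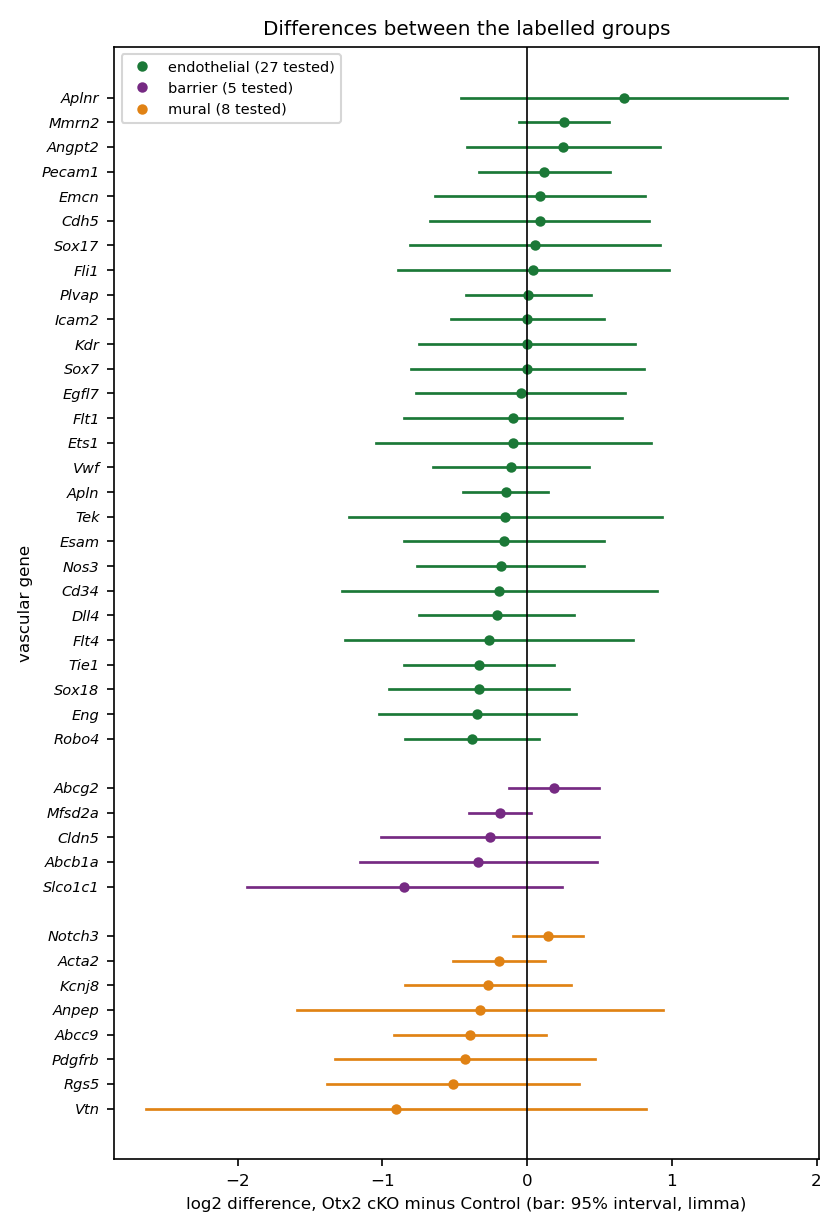
Log2 difference (Otx2 cKO minus Control, n = 3 and 4) of the 40 vascular genes tested (fewer values for Robo4 and Cd34), with 95% intervals from limma, ordered within each class. All 40 intervals cross 0, and 4 of 5 barrier and 7 of 8 mural genes lie below 0, against 15 of 27 endothelial genes.

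Acta2, the smooth muscle actin gene, gave different profiles on its probes for the same transcript. The brighter probe, which represents the gene here, had 2.93, 2.58 and 2.57 in cKO replicates 1 to 3, against 3.09, 2.91, 2.83 and 2.71 in control replicates 1 to 4. These values varied little, with a difference of -0.19 ± 0.13 (adjusted p = 0.644). The dimmer probe, above background on all 7 arrays, had -3.65, -0.60 and -3.52 in cKO replicates 1 to 3, against -1.20, -3.81, -0.26 and -1.36 in control replicates 1 to 4. In that probe cKO replicates 1 and 3 and control replicate 2 were more than 2 log2 units below the other arrays, the pattern seen in Vtn, and the difference was -0.93. A further probe did not rise well above background on any of the 7.

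**Figure D5:**
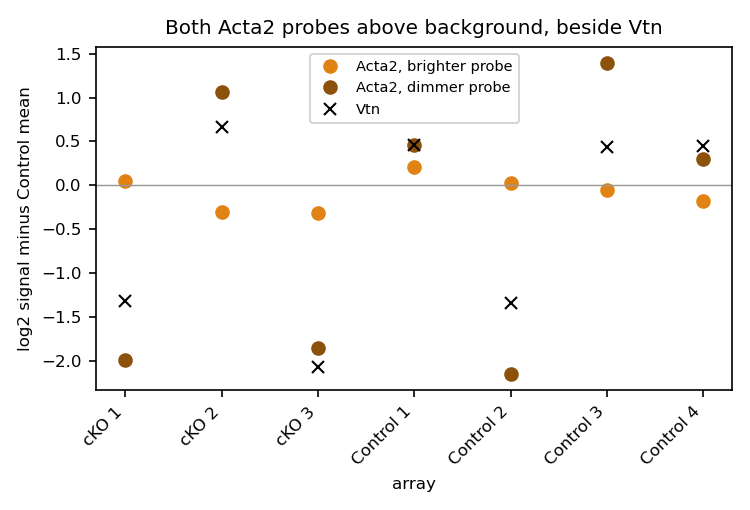
Log2 signal of both Acta2 probes above background and of Vtn, each minus its mean over the Control arrays, by array (cKO-labelled left, Control right). The brighter Acta2 probe stays between -0.32 and 0.21, while the dimmer probe and Vtn are low in cKO replicates 1 and 3 and control replicate 2.

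Further genes of the same cells and pathways gave 0 called genes in every list. Of 20 other endothelial genes 19 were tested, with a median difference of -0.0072; Gpihbp1, a lipoprotein lipase anchor of capillaries, differed by 0.45 ± 0.19 and Rasip1 by -0.24 ± 0.24. Etv2, an early endothelial ETS gene, was well above background on no array. The 15 other barrier genes had a median of -0.026, with 0.33 ± 0.11 for the tricellular junction gene Lsr and -1.07 ± 0.36 for Pglyrp1. In this list 2 genes, Lsr and Slc16a1, had every cKO-labelled array above every control, and 1, Tfrc, had every such array below. Over all genes tested the shares were 4.85% above and 6.99% below. The 9 other mural genes tested, of 14, had a median of -0.44 with 8 below 0. Among them Cspg4, the NG2 proteoglycan gene that oligodendrocyte precursors share with pericytes, had -1.68, -1.29 and -1.86 in cKO replicates 1 to 3, against -0.82, -0.93, -0.97 and -1.03 in control replicates 1 to 4. Cspg4 was the only 1 of the 9 with all 3 cKO-labelled arrays below all controls, where 6.99% of all genes tested were. Its difference of -0.67 ± 0.14 did not pass (limma, adjusted p = 0.227). The pericyte gene Higd1b differed by -1.33 ± 0.54, with cKO replicates 2 and 3 at -7.22 and -7.27, near the floor of -7.59. In cKO replicate 1 Higd1b, at -5.24, lay within the control range. The 8 vascular basement membrane genes, which neural and meningeal cells share, had a median of -0.026, with 0.18 ± 0.12 for Sparc and 0.23 ± 0.19 for the perlecan gene Hspg2.

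Ligands and guidance cues that reach vessels were tested as well. Of 20 such genes 0 were called, with a median of -0.074. Slit2, a secreted ligand of roundabout receptors made by neural tissue, had 2.08, 2.51 and 1.86 in cKO replicates 1 to 3, against 1.19, 1.01, 1.40 and 1.43 in control replicates 1 to 4. All 3 cKO-labelled arrays were above all controls, with a difference of 0.89 ± 0.18 (limma, adjusted p = 0.187). Sema3e, a semaphorin that repels endothelial cells through Plxnd1, had -2.40, -2.67 and -2.59 in cKO replicates 1 to 3, against -1.95, -1.89, -2.05 and -2.28 in control replicates 1 to 4. Again the groups did not overlap, but in the other direction, at -0.51 ± 0.12 (limma, adjusted p = 0.268). Of the 20 genes 2, Slit2 and Nrp1, lay fully above the controls and 1, Sema3e, fully below. Over all genes tested the shares were 4.85% and 6.99%. The vascular Notch list had a median of -0.12 over 7 tested genes, with 0.30 ± 0.13 for the ligand gene Jag1 and -0.13 ± 0.14 for Notch1. The WNT7 and barrier induction list had a median of 0.044 over 10 tested genes, with -0.25 ± 0.13 for Wnt7b and -0.24 ± 0.17 for Wnt7a, both below 0 and neither past the test.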

How the data were processed

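Per the labels' protocols, the RNA of each of the 7 embryos was amplified with Cy3 and read on its own Agilent whole mouse genome array. The deposited intensity values were made with Agilent Feature Extraction 10.7.3.1 per the file headers (the submitters' processing notes name 10.5): background-subtracted and detrended within each array, not normalized between arrays. The authors' deposited log2 table, made by a method the labels and headers do not state, served as an alternative; within each array its order followed the raw median signal (rank correlation at least 0.99996), its columns shared a maximum of 18.8 and had medians of 7.61 to 7.64.

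Control spots and spots marked as outliers were left out; 0 spots were saturated. Signals were scaled to each array's own 75th percentile and floored, on the log2 scale, at -7.59 (the highest of the arrays' lowest signals well above background), then averaged per probe. Probes were named by RefSeq accession through the GRCm38.p6 gene table (24844 of 41174 probes; 0 had several symbols and 16330 had none), and the brightest probe stood for its gene. Genes well above background on at least 3 of 7 arrays, with at least 2 values per group, were tested with limma 3.58.1 in R 4.3.3 (group as the only term; Benjamini-Hochberg over 13350 genes; threshold 0.05). The fit was tested on simulated data. Precision is limited by having 7 arrays, and p-values measure the spread between these embryos, within and between litters together. The main fit counted the embryos of litter 2 as independent.

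The genes, the lists and the tests were chosen with earlier results of these data known. Genes given array by array were the defining genes of each class, those whose groups did not overlap, in each role the 2 smallest p and the widest range, and those with probes of opposite sign; of each further list the 2 smallest p are given, except for 1 gene that is not reported here and for choroid plexus genes at the floor. The 24 alternatives covered scaling, background, filter, probe choice, slide, litter, replicate number, variance model and single arrays. The planned normexp correction used the spot's median signal, because the files hold no mean signal. Replicate numbers were not treated as a pairing in the main fit. No cKO-labelled array correlated best with the control of its own number, though correlations cannot exclude a pairing by design. The Pearson correlations of same-numbered arrays were 0.987, 0.981 and 0.987 for replicates 1 to 3. That of cKO replicate 1 with control replicate 2 was 0.992.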

Additional observations from a re-analysis of the deposited data

Results flagged for a closer look

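Among the 4 controls, 8 of the 40 genes with a value in every control had an array standing far from the other 3 by Dixon's test, which flags about 1 group in 20 (5%) by chance. Control replicate 2 was the low array in 7 of them: Eng at -1.38 (nearest other control -0.98), Ets1 at -1.02 (-0.20), Egfl7 at 1.27 (1.69), Cldn5 at 1.37 (2.13), Mfsd2a at 1.86 (2.07), Pdgfrb at -0.11 (0.59) and Vtn at -0.17 (1.61). These genes share that array, so their marks are not independent. Control replicate 4 was high for Pecam1, at -3.81 against -4.05 in the nearest other control. Groups of 3 arrays, such as those labelled Otx2 cKO, were not tested this way. Control replicate 2 also had the lowest summed signal of the mesenchyme and meninges list, 2.91; the part of those cells in the low vascular values was not tested.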

How the results depend on the processing

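Under all 24 alternatives 0 vascular genes passed limma's test. The most at an unadjusted p under 0.05 were 11 of 40, all lower, with array weights. In that fit 1349 of all 13350 genes were lower and 964 higher at that p. Next came 7 of 39, all lower, without cKO replicate 2, where 737 of all 13225 genes were lower and 518 higher. No alternative turned the sign of a called vascular gene, since none was called, though up to 10 of the 40 changed sign (litter as a block, within litter 2 and without cKO replicate 2). The barrier and mural medians stayed below 0 in all 24 (-0.59 to -0.043 and -0.68 to -0.13), and the endothelial median in 21 (-0.38 to 0.18); leaving out 1 array gave -0.55 to -0.043, -0.57 to -0.13 and -0.38 to 0.18. Centring on the array median moved the median of all genes to -0.06 and the vascular genes below 0 from 26 to 32 of 40. The count over all genes was 26 and depended on the processing: it was 42 with normexp, 41 in the authors' value table, 52 with a variance trend, 61 with array weights, 13 with slide as a block, 1 with no filter on dim probes, and 0 within slide 1, slide 2 or litter 2 and with litter as a block (at an unadjusted p under 0.05, genes lower numbered 165, 825, 394 and 400, and genes higher 255, 388, 319 and 326). With the replicate block it was also 0 (572 and 814), the vascular count stayed 0 and Otx2, at 1.56, did not pass (limma, adjusted p = 0.303). Nor did Otx2 pass with no filter on dim probes (limma, adjusted p = 0.0881). Whether the replicate numbers are a pairing is not known, and correlations between arrays cannot exclude it. Leaving out 1 array gave 0 to 32: 12 without control replicate 1, 7 without control replicate 2, 3 without cKO replicate 2, 32 without cKO replicate 1, and 0 when control replicate 3, control replicate 4 or cKO replicate 3 was left out (at that unadjusted p, 410, 518 and 371 genes higher and 624, 803 and 492 lower). The cause of these shifts was not tested. Erg and Abcb1a were near background, which makes their values uncertain. The standard error of a difference was largest for Vtn, at 0.73.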

Other observations

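Of the 3 lymphatic endothelial genes Prox1, Lyve1 and Pdpn 0 passed the test; they are also expressed by neural cells, macrophages and meninges. Lyve1 had log2 signals of -7.59, -3.004 and -5.55 in cKO replicates 1 to 3, against -3.99, -6.49, -3.90 and -3.55 in control replicates 1 to 4. It was high in cKO replicate 2, low in cKO replicates 1 and 3 and control replicate 2, and at the floor in cKO replicate 1. Pdpn differed by 0.34 ± 0.43 and Prox1 by -0.04 ± 0.10.

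A few vascular genes of the further lists could not be tested. The spots of the Notch target gene Hey1, the smooth muscle gene Tagln and the pericyte surface gene Mcam were marked as outliers on too many arrays. The muscle filament gene Des was well above background on no array. Hey1 had log2 signals of 2.39 in cKO replicate 1, the only unflagged cKO-labelled array, against 2.002, 2.03, 2.15 and 2.19 in control replicates 1 to 4. For the choroid plexus, Ttr was well above background on no array. No difference is given for Kcne2, at the floor in cKO replicates 2 and 3, or for Kl, at the floor in cKO replicate 3 and control replicate 2.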
